A study of Mus musculus with 8 samples.

Results

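The comparison described here is between skin of mice with the genotype hairloss at postnatal day 28 and skin of the same genotype at postnatal day 19, with 1 library at each age. All genes annotated as protein-coding and listed with at least 1 FPKM in either library were compared, joined on their Ensembl identifiers, which gave 13497 of 21899 coding genes and of 55418 genes in all. FPKM is a fragment count divided by the length of the transcript and the depth of the library. The series holds 8 libraries of total skin RNA, 1 from hairloss and 1 from wildtype mice at each of days 0, 16, 19 and 28. The labels give hairloss as a genotype, and the design text calls these mice spontaneously mutated. The gene that is mutated, the strain, the body site and the number of animals behind a library are not stated in the labels. With 1 library at each age a difference describes those libraries, has no replicate check and carries no p-value.

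A mouse hair follicle cycles through growth (anagen), regression (catagen) and rest (telogen). In growth, cells of the matrix at the base of the follicle divide and differentiate into the hair shaft, made of hair keratins cross-linked by keratin-associated proteins (KRTAPs), and into the inner root sheath that moulds it, while pigment cells beside them load the shaft with melanin. Sonic hedgehog from the early follicle epithelium drives the down-growth of a new follicle. In wildtype mice the first rest falls near the end of the third week after birth and the first regrowth follows it, so the interval compared here spans that regrowth.

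Both libraries carried skin markers, with Krt10 of the upper epidermis at 3251 FPKM at day 28, against 2049 FPKM at day 19, and Col1a2 of the dermis at 1731 FPKM at day 28, against 627 FPKM at day 19. The spacing of low values implied about 42700000 fragments at day 28 and 30900000 at day 19, and a 1 kb transcript with 3 fragments would be listed at 0.0703 FPKM at day 28 and 0.0971 FPKM at day 19, counting error only. Markers of sex differed. Ddx3y, Eif2s3y and Uty on the Y chromosome were listed at 0 at day 28, against 19.4, 37.5 and 12.8 FPKM at day 19, whereas Xist, the RNA that coats the inactive X chromosome, was at 50.2 FPKM at day 28, against 0.115 FPKM at day 19. Age and sex cannot be told apart in any difference given below. Of the other hairloss libraries, that of day 0 held Xist (76.1 FPKM) with Ddx3y at 0. That of day 16 held Ddx3y (20.4 FPKM) with little Xist (0.00961 FPKM). The wildtype library of day 28 held Ddx3y (16.5 FPKM) with little Xist (0.166 FPKM), and that of day 19 held both (15.8 and 12.4 FPKM). Fewer cells of a type and less RNA per cell cannot be told apart in whole skin.

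Hair shaft genes, pigment genes and cell division genes stood on either side of the step from day 19 to day 28, and stretches before the start sites of a few of their members are printed to show motifs that members of each list share. The 250 bases upstream of the annotated start are given from RefSeq on GRCm38.p6, 5′ to 3′ on the strand of the gene, in lower case. Capitals mark TATAAA, the TATA box, in the type I hair keratin Krt31 (chr11:100050552-100050801, minus strand) and in Krtap8-1 (chr16:89487953-89488202, minus strand).
Krt31: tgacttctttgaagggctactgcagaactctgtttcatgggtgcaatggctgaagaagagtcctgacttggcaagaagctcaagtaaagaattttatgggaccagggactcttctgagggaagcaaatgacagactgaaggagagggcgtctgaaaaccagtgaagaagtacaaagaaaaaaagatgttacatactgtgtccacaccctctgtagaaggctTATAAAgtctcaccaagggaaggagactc
Krtap8-1: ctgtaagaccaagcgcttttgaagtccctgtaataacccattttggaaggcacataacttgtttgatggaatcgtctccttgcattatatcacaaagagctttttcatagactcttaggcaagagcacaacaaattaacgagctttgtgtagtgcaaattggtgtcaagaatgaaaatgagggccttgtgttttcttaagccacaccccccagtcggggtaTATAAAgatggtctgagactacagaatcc
Capitals mark CATGTG, the core of the M-box known from pigment gene promoters, in tyrosinase (Tyr, chr7:87493513-87493762, minus strand), Tyrp1 (chr4:80833963-80834212, plus strand) and Dct (chr14:118052247-118052496, minus strand). In Dct capitals also mark CACATG, the reverse complement of CATGTG.
Tyr: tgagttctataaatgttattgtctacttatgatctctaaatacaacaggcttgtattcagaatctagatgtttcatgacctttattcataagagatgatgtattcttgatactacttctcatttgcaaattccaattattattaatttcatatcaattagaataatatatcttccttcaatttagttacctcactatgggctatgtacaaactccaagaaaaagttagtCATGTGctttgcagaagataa
Tyrp1: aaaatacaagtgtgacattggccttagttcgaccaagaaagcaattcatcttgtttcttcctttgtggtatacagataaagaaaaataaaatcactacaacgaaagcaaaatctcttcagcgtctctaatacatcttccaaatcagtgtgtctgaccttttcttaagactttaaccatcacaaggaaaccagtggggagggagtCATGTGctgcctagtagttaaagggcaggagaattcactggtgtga
Dct: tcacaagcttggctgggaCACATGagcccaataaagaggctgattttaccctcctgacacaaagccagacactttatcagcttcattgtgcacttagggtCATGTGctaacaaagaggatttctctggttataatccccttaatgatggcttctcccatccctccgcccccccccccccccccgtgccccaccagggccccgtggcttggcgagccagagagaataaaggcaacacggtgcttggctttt
Capitals mark CCAAT, or its reverse complement ATTGG, in the mitotic kinase Cdk1 (chr10:69352913-69353162, minus strand) and in cyclin B2 (Ccnb2, chr9:70421555-70421804, minus strand).
Cdk1: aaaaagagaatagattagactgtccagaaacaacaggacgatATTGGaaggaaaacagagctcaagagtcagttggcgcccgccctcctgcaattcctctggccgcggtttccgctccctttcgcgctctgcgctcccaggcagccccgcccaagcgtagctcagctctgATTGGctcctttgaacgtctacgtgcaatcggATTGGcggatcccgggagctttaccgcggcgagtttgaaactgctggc
Ccnb2: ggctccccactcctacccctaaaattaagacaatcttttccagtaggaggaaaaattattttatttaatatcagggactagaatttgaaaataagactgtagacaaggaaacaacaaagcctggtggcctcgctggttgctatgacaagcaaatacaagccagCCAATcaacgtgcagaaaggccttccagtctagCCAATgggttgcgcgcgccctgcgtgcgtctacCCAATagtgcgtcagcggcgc
TATAAA began 29 bases before the start in both Krt31 and Krtap8-1. Counting both strands, it was present in this window in 6 of 9 hair shaft keratins, 10 of 14 glycine-tyrosine-rich KRTAPs, 31 of 37 cysteine-rich KRTAPs and 7 of 11 inner root sheath genes with a promoter in the table, against 14.3% of all 27025 genes. The cell division list held it in 0 of 29, and the small proline-rich genes of the epidermis in 10 of 14. CATGTG was present in 7 of 8 pigment genes and 13.8% of all genes, and also in 8 of 14 glycine-tyrosine-rich KRTAPs and 11 of 20 late cornified envelope genes. It began 21 bases before the start in Tyr, 46 in Tyrp1 and 150 and 232 in Dct. CCAAT was present in 24 of 29 cell division genes and 37.5% of all genes, and 3 copies lay in Cdk1, at 208, 80 and 48 bases, and 3 in Ccnb2, at 87, 54 and 21 bases. In the same windows TTTGAA, the cell cycle homology element, was present in 7 of 29 cell division genes, 8 of 9 hair shaft keratins and 18.3% of all genes, and GACCACCCA, the core of the GLI site, in 0 of 7 hedgehog genes and 0.255% of all genes. Sites of different names can overlap, as CCAAT can with the end of GACCACCCA, and a match in letters is a description of the window and not a binding site.

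A gene was counted as higher or lower where log2(FPKM + 1) differed by at least 1 between the libraries, which is 2-fold on that scale and understates the fold of low genes. Of 13497 genes, 429 (3.18%) were higher at day 28 and 535 (3.96%) were lower, 7.14% in all, with a median difference of 0.01 and quartiles of -0.25 and 0.25. The larger differences lay on the lower side, with 39 genes higher and 173 lower by at least 4-fold. Genes at or above 100 FPKM in the higher library passed more often, 9.08% of 639 being higher and 7.51% lower, than the 3445 genes under 5 FPKM, of which 2.26% were higher and 4.41% lower. Just inside the limit of 1 FPKM stood 654 genes with a higher value of up to 1.5 FPKM, and just outside it 877 genes between 0.5 and 1 FPKM. The 16 housekeeping genes measured all stayed within 2-fold, with a median difference of -0.05.

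**Figure D1:**
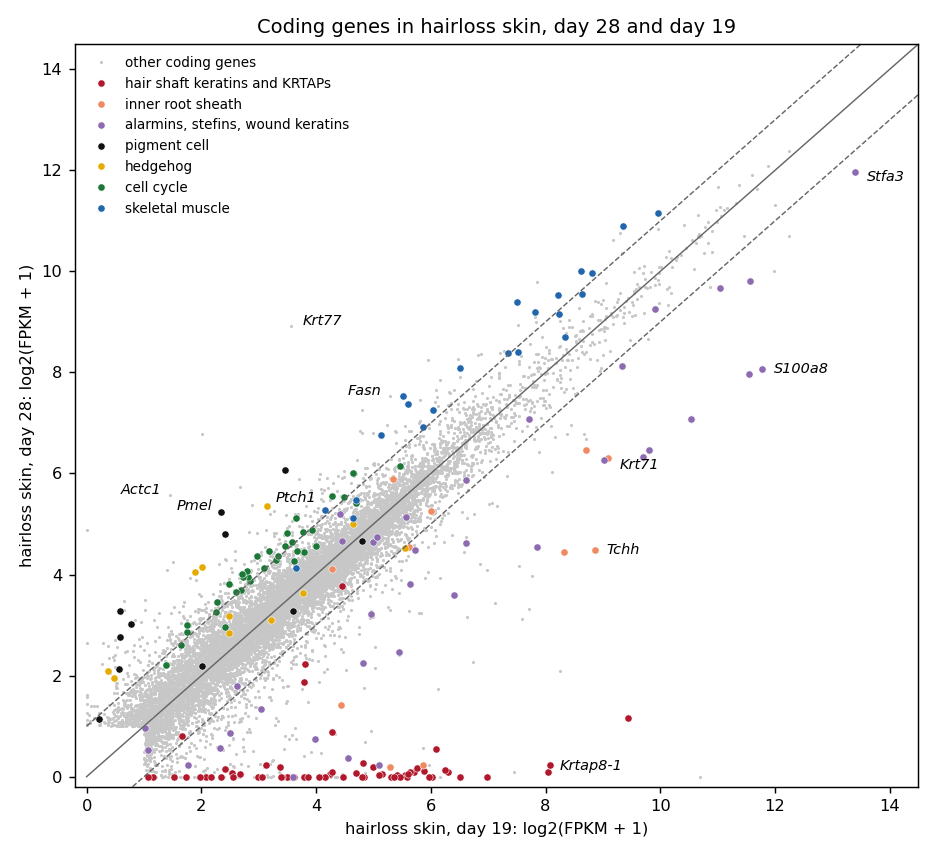
Level of each of the 13497 coding genes in hairloss skin at day 28 (vertical axis) and day 19 (horizontal axis), both as log2(FPKM + 1), with gene lists in colour; the solid line is equality and the dashed lines are 2-fold. Hair shaft genes lie along the bottom at day 28, and many pigment, hedgehog and cell division genes lie above the upper dashed line or near it.

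Keratins and KRTAPs made up 76 of the 535 lower genes and 65 of the 173 that were lower by at least 4-fold, but 91 of all 13497 (0.674%) and 2 of the 429 higher genes. Together they held 2.73% of the summed FPKM of coding genes at day 28 and 4.92% at day 19. Of the chromosomes that carry their clusters, chromosome 16 had 10.7% of 448 genes lower, chromosome 11 had 6.01% of 1164 and chromosome 15 had 4.75% of 526, where all chromosomes gave 3.96%. Chromosome 16 also carries most of the stefins, a list described below with 10 of 14 genes lower. Chromosome 1, with 5.60% of 804, and chromosome 10, with 5.30% of 642, lay near the values of chromosomes 11 and 15. All 4 genes compared on the Y chromosome were lower.

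Hair shaft genes were lower at day 28, most of them close to the limit of detection. Of the 15 hair shaft keratins measured, 14 were lower at day 28 and 0 were higher, with a median level of 0.0605 FPKM at day 28, against 30.8 FPKM at day 19, and a median difference of -4.80. Krt81, a type II keratin of the cortex, had 0.0605 FPKM at day 28, against 51.4 FPKM at day 19. Krt83 had 0.452 FPKM at day 28, against 67.0 FPKM at day 19, and Krt86 had 0.0211 FPKM at day 28, against 45.8 FPKM at day 19. These are type II partners of the type I hair keratins, which stood as low. Krt31 had 0.0273 FPKM at day 28, against 33.3 FPKM at day 19, Krt33a had 0.0274 and 41.7 FPKM at those ages, and Krt34 was listed at 0 at day 28 with 38.4 FPKM at day 19. Of the 15, 11 were thus under 0.2 FPKM at day 28, near the value of 3 fragments.

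Krt35, a keratin of the matrix and the lowest cortex and so among the earliest hair keratins, was the exception, at 12.7 FPKM at day 28, against 20.9 FPKM at day 19, a difference of -0.67. Krt32 and Krt84 also kept a level, with 3.69 and 2.65 FPKM at day 28, against 13.1 and 12.8 FPKM at day 19. At day 28 Krt35 alone gave 12.7 of the 20.2 FPKM summed over the 15 genes, while at day 19 the sum was 414 FPKM. Over the 4 hairloss ages the list median was 0.414 FPKM at day 0, 80.7 at day 16, 30.8 at day 19 and 0.0605 at day 28. Days 0 and 28 were the ages with high Xist and Ddx3y at 0, so age and sex cannot be told apart here either.

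KRTAPs form the matrix between the keratin filaments of the shaft and are small, often nearly identical genes, so the value of a single member is uncertain. Of 57 measured, 49 reached 1 FPKM in either library, 48 were lower at day 28 and 0 were higher. At day 28, 39 of the 57 were listed at 0 and 53 were under 0.2 FPKM, with a highest value of 1.23 FPKM, whereas at day 19 the median was 13.5 FPKM and the highest 688 FPKM. The glycine-tyrosine-rich members, which are found in the cortex, had a median difference of -5.54, or -5.49 with values of 0 set to the level of 3 fragments, and all 15 were lower. The 42 cysteine-rich members had a median difference of -3.46, or -3.40 so set, and 33 were lower. Krtap22-2 (chr16:89010395-89010759, on GRCm38 from GENCODE M21 as for all gene positions below) had 1.23 FPKM at day 28, against 688 FPKM at day 19. Krtap8-1, whose promoter is printed above, had 0.0734 FPKM at day 28, against 262 FPKM at day 19. Krtap3-1, a cysteine-rich member, had 0.0662 FPKM at day 28, against 77.5 FPKM at day 19.

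The inner root sheath was lower too, but kept RNA. Of 11 genes 8 were lower at day 28, with a median difference of -2.77 and a summed level of 345 FPKM at day 28, against 2024 FPKM at day 19. Krt72, a late keratin of the sheath cuticle, had 0.174 FPKM at day 28, against 57.4 FPKM at day 19. Krt71 and Krt25, the pair that forms the first filaments of the sheath, had 78.7 and 87.7 FPKM at day 28, against 542 and 416 FPKM at day 19. Trichohyalin (Tchh), the granule protein that hardens the sheath, had 21.4 FPKM at day 28, against 464 FPKM at day 19. The step was thus larger in Krt72 than in Krt71 and Krt25, and other sheath keratins lay on either side of that pair. Krt26 had 0.144 FPKM at day 28, against 38.3 FPKM at day 19. Krt73 and Krt28, named after their values were seen, had smaller steps, with 22.3 and 37.2 FPKM at day 28, against 47.9 and 63.3 FPKM at day 19.

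The list of the hair matrix and of shaft differentiation holds late products and regulators. Of 23 measured genes 13 were lower and 0 higher, and the median difference was -1.08. Gprc5d, a receptor of the forming shaft, had 0.0543 FPKM at day 28, against 27.9 FPKM at day 19, and S100a3, a calcium-binding protein of the hair cuticle, had 7.67 FPKM at day 28, against 191 FPKM at day 19. The desmosomal cadherin Dsg4 had 0.750 FPKM at day 28, against 10.03 FPKM at day 19. The regulators named stood closer to their level at day 19, although Hr, Hoxc13 and Foxn1 passed 2-fold. Hr, the corepressor lost in hairless mice, had 60.8 FPKM at day 28, against 159 FPKM at day 19, and the vitamin D receptor Vdr had 39.3 FPKM at day 28, against 46.8 FPKM at day 19. Hoxc13 and Foxn1, transcription factors that switch on hair keratin genes and chosen here after their values were seen, had 4.13 and 1.19 FPKM at day 28, against 9.28 and 3.83 FPKM at day 19. Msx2, Dlx3, Msx1 and Lef1 of this list, also chosen so, stayed within 2-fold, with differences of -0.21, 0.12, 0.51 and 0.67. Of the 23 genes, 19 had a negative and 4 a positive difference. The gene list compiled for inherited hair loss in mice, which overlaps these lists, held 5 higher and 12 lower of 41, with a median of -0.41.

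Signals that start a follicle stood on the other side. In the hedgehog list 5 of 11 genes were higher and 1 was lower, the median difference being 0.68. Shh, the ligand (chr5:28456815-28467256), had 3.27 FPKM at day 28, against 0.296 FPKM at day 19. Its receptor Ptch1, itself a target of the pathway, had 40.2 FPKM at day 28, against 7.84 FPKM at day 19. The transcription factor Gli1 had 16.8 FPKM at day 28, against 3.04 FPKM at day 19, and the inhibitor Hhip had 2.89 and 0.385 FPKM at those ages. The ligand and these targets were thus higher together, while the coreceptor Gas1 had 22.1 FPKM at day 28, against 45.7 FPKM at day 19, and the transducer Smo stayed within 2-fold at 30.8 and 23.9 FPKM.

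Wnt genes were mostly within 2-fold, 4 of 34 being higher and 1 lower, the median being 0.22. Wif1, a secreted Wnt inhibitor of the dermal papilla, had 14.2 FPKM at day 28, against 2.50 FPKM at day 19, and Lgr6, a stem cell receptor, had 11.003 FPKM at day 28, against 2.98 FPKM at day 19. Among 18 dermal papilla genes 4 were higher and 0 lower, and the median was 0.41. Those higher include Wif1, also in the Wnt list, and Hhip, also in the hedgehog list. The homeobox gene Alx4 had 4.59 FPKM at day 28, against 0.627 FPKM at day 19. No such shift showed in the BMP list, where 1 of 19 was lower and 0 were higher. Of the 11 fibroblast growth factor genes of the hair cycle 1 was lower, namely Fgf5, the factor that ends growth, with 0.0172 FPKM at day 28, against 1.45 FPKM at day 19. Of the 12 bulge genes, Lhx2 was higher, at 19.7 FPKM at day 28, against 8.19 FPKM at day 19, Sox9 was lower, at 11.003 and 29.8 FPKM, and Gas1 is named above.

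Pigment genes were higher as a group, 7 of 14 by at least 2-fold and 0 lower, and the median difference was 1.25. Pmel, which builds the fibrils of the melanosome (chr10:128704195-128720238), had 37.0 FPKM at day 28, against 4.09 FPKM at day 19. Dct, Tyrp1 and Tyr, the enzymes of melanin synthesis, had 65.8, 26.9 and 5.78 FPKM at day 28, against 10.05, 4.31 and 0.506 FPKM at day 19. Mlana had 8.76 FPKM at day 28, against 0.497 FPKM at day 19. Sox10, a transcription factor of pigment cells that Schwann cells share, stayed within 2-fold with 3.58 FPKM at day 28, against 3.02 FPKM at day 19. Rab38, which carries enzymes to the melanosome, had 24.4 FPKM at day 28, against 26.8 FPKM at day 19.

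Cell division genes were higher almost throughout. Of 36 measured, 24 were higher by at least 2-fold and 0 lower, 35 had a positive difference, and the median was 1.06. Mki67, the proliferation antigen, had 45.9 FPKM at day 28, against 18.5 FPKM at day 19. Top2a, the mitotic topoisomerase, had 63.4 FPKM at day 28, against 24.1 FPKM at day 19, and Cdk1 had 45.4 and 21.4 FPKM. Uhrf1, a maintenance factor of DNA methylation in S phase, had 34.0 FPKM at day 28, against 11.6 FPKM at day 19. The exception was Kif11, low in both at 0.295 FPKM at day 28, against 0.773 FPKM at day 19, named after its values were seen. The median level of the list was 18.4 FPKM at day 28, against 7.77 FPKM at day 19.

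**Figure D2:**
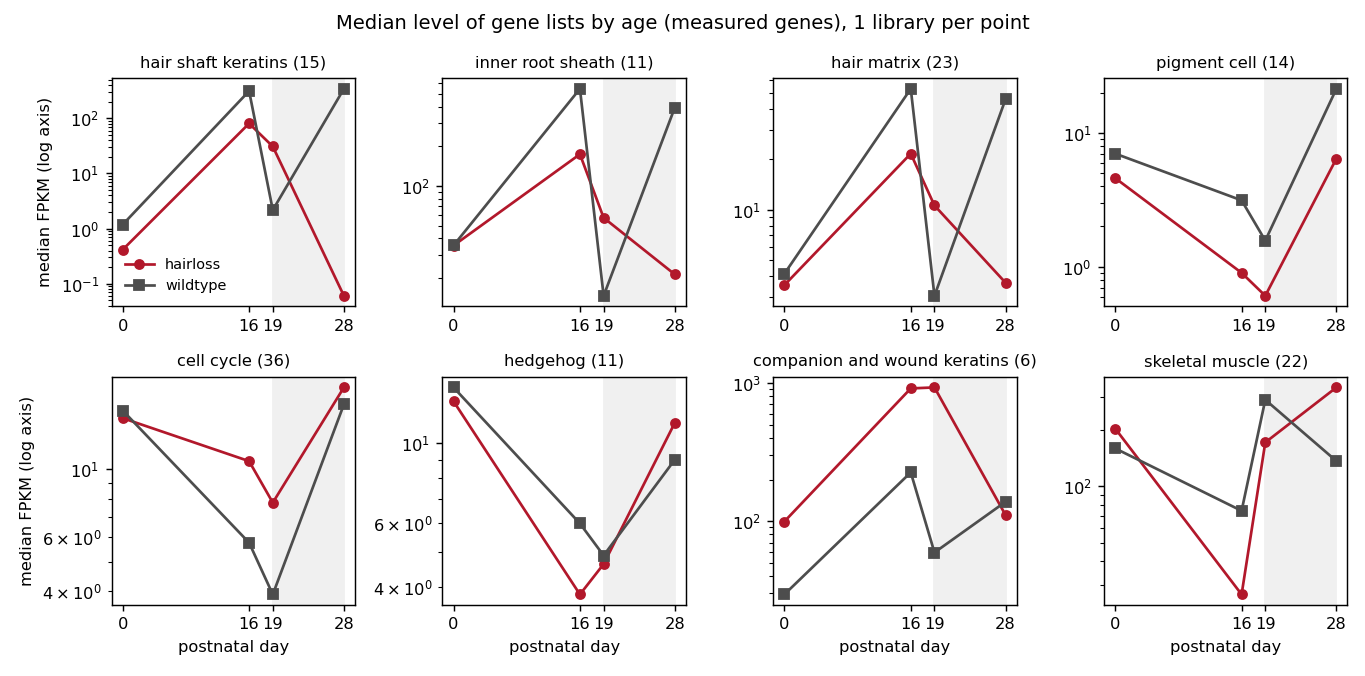
Median FPKM (log axis) of 8 gene lists by postnatal day, in hairloss (red circles) and wildtype skin (grey squares), with 1 library at each point and the number of measured genes in brackets; the shaded band is day 19 to day 28. In hairloss skin the shaft keratin median reaches 0.0605 FPKM at day 28 while the pigment, cell cycle and hedgehog medians turn upward, and in wildtype skin all 4 turn upward. The hairloss libraries of days 0 and 28 held high Xist and those of days 16 and 19 held Ddx3y.

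Set against wildtype skin over the same days, the hairloss step was smaller in number. By the same rule 985 (7.3%) of the 13497 genes were higher and 1154 (8.55%) lower in wildtype skin at day 28 than at day 19, 15.8% in all. The wildtype split depended on scaling, with 716 higher and 1867 lower when each library was divided by its sum over coding genes, which moved the wildtype median to -0.27. The same scaling gave 503 higher and 487 lower in hairloss skin, so the small excess of lower genes there depended on scaling too. The steps share no library. Of the 535 genes that were lower in hairloss skin, 223 were higher in wildtype skin, 41.7% of the hairloss genes and 22.6% of the 985 wildtype genes, and 69 of these 223 were keratins or KRTAPs. Of the 429 higher in hairloss skin, 105 were also higher and 124 were lower in wildtype skin, and across all 13497 genes the correlation of both steps was r = -0.317, a description over genes that are not independent. Of these 13497 genes, 10894 stayed within 2-fold in both genotypes. The correlation includes Col3a1, whose 0 can be a failed estimate, with steps of -10.70 in hairloss and 11.62 in wildtype skin.

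All 15 hair shaft keratins were higher in wildtype skin at day 28, with a median difference of 6.88, against -4.80 in hairloss skin. Krt31 stood at 0.0273 FPKM at day 28, against 33.3 FPKM at day 19, in hairloss skin, and at 343 FPKM at day 28, against 0.915 FPKM at day 19, in wildtype skin. The order of the genotypes was thus opposite at the 2 ages. Krt71 stood at 78.7 FPKM at day 28 and at 542 FPKM at day 19 in hairloss skin, and at 2466 FPKM at day 28 and 28.6 FPKM at day 19 in wildtype skin. The inner root sheath list had 10 of 11 genes higher in wildtype skin and the KRTAPs 55 of 57.

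The hedgehog, cell division and pigment lists had positive medians in both genotypes. Ptch1 had 40.2 FPKM at day 28, against 7.84 FPKM at day 19, in hairloss skin, and 20.8 FPKM at day 28, against 9.18 FPKM at day 19, in wildtype skin. Mki67 reached 45.9 FPKM at day 28 in hairloss and 47.4 FPKM in wildtype skin, with 18.5 FPKM at day 19 in hairloss and 6.06 FPKM in wildtype skin. The cell division list had 31 of 36 genes higher in wildtype skin with a median of 2.20, larger than 1.06 in hairloss skin, where the median level at day 19 was 7.77 FPKM, against 3.91 FPKM in wildtype skin. For pigment, 11 of 14 genes were higher in wildtype skin with a median of 3.24, and Pmel ended at 37.0 FPKM in hairloss and 130.1 FPKM in wildtype skin at day 28. With 1 library at each age none of these differences of steps could be tested.

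**Figure D3:**
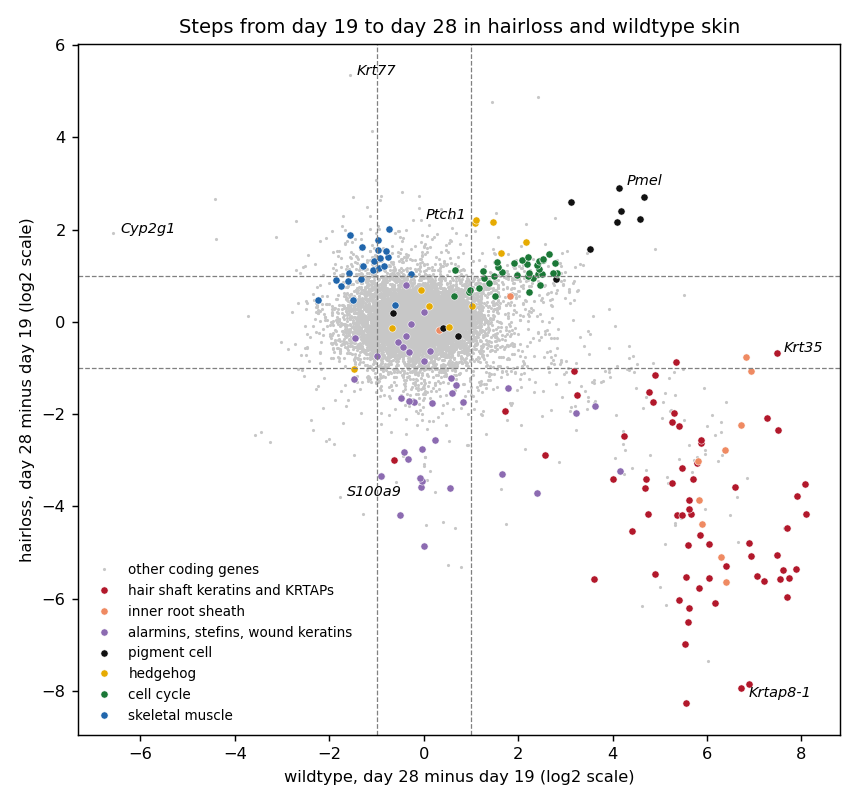
Difference of log2(FPKM + 1) between day 28 and day 19 for the compared coding genes, in hairloss skin (vertical axis) and wildtype skin (horizontal axis). Dashed lines are 2-fold. The 9 suspected failed estimates were left out of the grey points only, so Krtap6-3 among them is still drawn in colour. Hair shaft and inner root sheath genes fill the lower right, lower in hairloss and higher in wildtype skin, and many pigment, hedgehog and cell cycle genes lie at the upper right.

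Alarmin and wound epidermis genes, which injured or inflamed keratinocytes make, were lower at day 28. Of 25 measured 14 were lower and 0 higher, the median being -1.65, against 3 higher and 2 lower in wildtype skin. The list overlaps those of wound keratins and cytokines, Krt6b and Tslp being among the shared genes, so these lists are not separate observations. S100a8 (chr3:90668978-90670035) and S100a9, the subunits of calprotectin, had 266 and 250.5 FPKM at day 28, against 3499 and 3004 FPKM at day 19. Krt6a, Krt6b and Krt16, keratins of the companion layer and of wounded epidermis, had 134, 79.2 and 87.4 FPKM at day 28, against 1479, 833 and 893 FPKM at day 19. In wildtype skin at day 28 Krt6a stood at 96.8 FPKM, Krt6b at 0.170 FPKM and Krt16 at 9.77 FPKM, all below the hairloss values. In wildtype skin neither S100a9 nor these 3 keratins passed 2-fold, while S100a8 was higher at 44.4 FPKM at day 28, against 7.64 FPKM at day 19, S100a9 having 3.07 FPKM at day 28, against 3.23 FPKM at day 19.

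The neutrophil list, which shares S100a8 and S100a9 with the alarmins, had 7 of 16 genes lower and 0 higher. Csf3r, the receptor of granulocyte colony-stimulating factor, had 0.682 FPKM at day 28, against 5.59 FPKM at day 19, and the granule gene Ngp had 0.0378 and 1.82 FPKM, while Ly6g was listed at 0 at both ages. The summed level of the list was 543 FPKM at day 28, against 6548 FPKM at day 19, nearly all of it S100a8 and S100a9. The chemokine Cxcl5, which attracts neutrophils, had 0.194 FPKM at day 28, against 7.10 FPKM at day 19, and the cytokine Il1b had 1.52 and 7.26 FPKM. The part of neutrophils in the alarmin values was not tested. Macrophage (16) and Langerhans cell and MHC class II (11) genes all stayed within 2-fold, and 1 of 14 T cell genes was lower. Of 7 B cell genes only 1 reached 1 FPKM in either library, and a gene under 1 FPKM in both cannot pass the size rule. The median of the 7 was 0.0772 FPKM at day 28, against 0.587 FPKM at day 19, and 6 of them had a negative difference.

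Stefins, inhibitors of cysteine proteases mostly clustered on chromosome 16, were lower in 10 of 14 genes, with a median of -1.65. Stfa3 (chr16:36450537-36455392), one of several similar copies, had 3978 FPKM at day 28, against 10773 FPKM at day 19, where it was the highest coding gene with a symbol. In wildtype skin it had 45.9 FPKM at day 28, against 12.6 FPKM at day 19. Cstdc5 had 898 FPKM at day 28, against 3017 FPKM at day 19, and Cst6, the cystatin that restrains epidermal proteases, had 1032 and 4050 FPKM. Among 12 kallikreins and inhibitors 5 were lower, including the protease Klk6 at 63.9 FPKM at day 28, against 277 FPKM at day 19. Of 12 ligands and receptors of the EGF family 4 were lower and 0 higher, with Hbegf at 4.55 FPKM at day 28, against 21.2 FPKM at day 19, Tgfa at 6.80 and 20.1 FPKM, and Nrg1 of the related receptors at 1.25 and 8.88 FPKM. The ligand Ereg stayed within 2-fold on the other side, at 7.57 FPKM at day 28, against 3.87 FPKM at day 19.

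Of 13 basal layer genes 3 were lower. Krt14, the main basal keratin, had 1658 FPKM at day 28, against 4829 FPKM at day 19. Krt5, the partner of Krt14, stayed within 2-fold at 1334 and 1903 FPKM. Of 14 immediate early genes, which respond within minutes to growth signals, 6 were lower, Junb having 25.9 FPKM at day 28, against 96.7 FPKM at day 19.

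The upper epidermis split by gene. Krt77, a type II epidermal keratin (chr15:101858731-101869705), had the largest positive difference of all named genes, 5.34, with 481 FPKM at day 28, against 10.9 FPKM at day 19. In wildtype skin it had 373 FPKM at day 28, against 1109 FPKM at day 19. Krt1 and Krt10 stayed within 2-fold. Late cornified envelope genes, cross-linked under the cell surface of the horny layer, were higher in 9 of 21 and lower in 0, the median being 0.90, and in wildtype skin 11 of 21 were lower. Lce1m had 55.4 FPKM at day 28, against 18.7 FPKM at day 19. The Lce3 genes, the branch of this family known in human skin from a damaged barrier, were also described as a list of their own. They stayed within 2-fold in all 6, Lce3d having 9.05 FPKM at day 28, against 10.1 FPKM at day 19. None of the 9 higher genes thus lay in the Lce3 branch. Small proline-rich genes went the other way, 7 of 15 being lower and 0 higher, with Sprr1b at 23.7 FPKM at day 28, against 96.4 FPKM at day 19.

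Flg2 and Hrnr, filaggrin-type proteins of the horny layer, had 109.9 and 29.7 FPKM at day 28, against 26.9 and 12.4 FPKM at day 19. Tchhl1 and Crnn of the same gene family, which in wildtype skin were higher at day 28 by 5.01 and 5.96 on the log2 scale, had 0.172 and 3.46 FPKM at day 28, against 61.7 and 31.4 FPKM at day 19. Slurp2 and Slurp1, secreted Ly6 proteins of keratinocytes, had 152 and 35.6 FPKM at day 28, against 26.98 and 11.5 FPKM at day 19. Serpinb6d, a serine protease inhibitor gene in a cluster of similar copies, had 109 FPKM at day 28, against 3.01 FPKM at day 19, above 2.24 FPKM in wildtype skin at day 28.

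Part of the genes of the sebaceous gland and of fat were higher. Of 21 enzymes of barrier lipid synthesis 1 was higher and 0 lower, the median being 0.05. In the sebaceous gland list 8 of 16 genes were higher and 0 lower, the median being 0.93, where wildtype skin had 1 higher and 6 lower. Fasn, fatty acid synthase (chr11:120805846-120824547), had 185 FPKM at day 28, against 38.01 FPKM at day 19, and Scd1, the desaturase whose loss shrinks the gland, had 883 and 231 FPKM. Thrsp, an inducer of fatty acid synthesis, had 52.4 FPKM at day 28, against 5.35 FPKM at day 19. In the adipocyte list 6 of 18 were higher and 0 lower, with Gpd1 at 58.6 FPKM at day 28, against 11.96 FPKM at day 19, and Fabp4 within 2-fold at 553 and 437 FPKM. Sebocytes and fat cells share several of these genes, so their parts cannot be told apart in whole skin.

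Skeletal muscle RNA moved with the step. Of 22 genes 15 were higher at day 28 and 0 lower, all 22 had a positive difference and the median was 1.18, and none was listed at 0. Their summed level was 11749 FPKM at day 28, against 4962 FPKM at day 19, in hairloss skin, and 5273 FPKM at day 28, against 10515 FPKM at day 19, in wildtype skin. Pvalb, the calcium buffer of fast fibres, had 669 FPKM at day 28, against 180.2 FPKM at day 19. Actc1, the cardiac actin that immature muscle also uses, had 46.8 and 1.73 FPKM, while the immature myosin Myh8 had 5.93 FPKM at day 28, against 9.35 FPKM at day 19. The part of muscle in the other higher genes was not tested. Haemoglobin genes were also higher, Hbb-bs having 343 FPKM at day 28, against 153 FPKM at day 19.

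Of 21 dermal matrix genes 5 were higher and 2 lower, and the median was 0.62. Col1a2 is given above, elastin (Eln) had 192 FPKM at day 28, against 80.2 FPKM at day 19, and Col12a1 was lower at 33.6 and 97.6 FPKM. The other gene counted as lower, Col3a1, was listed at 0 at day 28 with 1659 FPKM at day 19, a 0 that can be a failed estimate for a collagen this abundant. Endothelial (14), Schwann cell (12) and smooth muscle (9) genes all stayed within 2-fold in hairloss skin, although 14 of 14 endothelial genes were lower in wildtype skin, as for Pecam1, which had 19.8 FPKM at day 28, against 22.6 FPKM at day 19, in hairloss skin and 9.96 FPKM at day 28, against 31.2 FPKM at day 19, in wildtype skin.

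**Figure D4:**
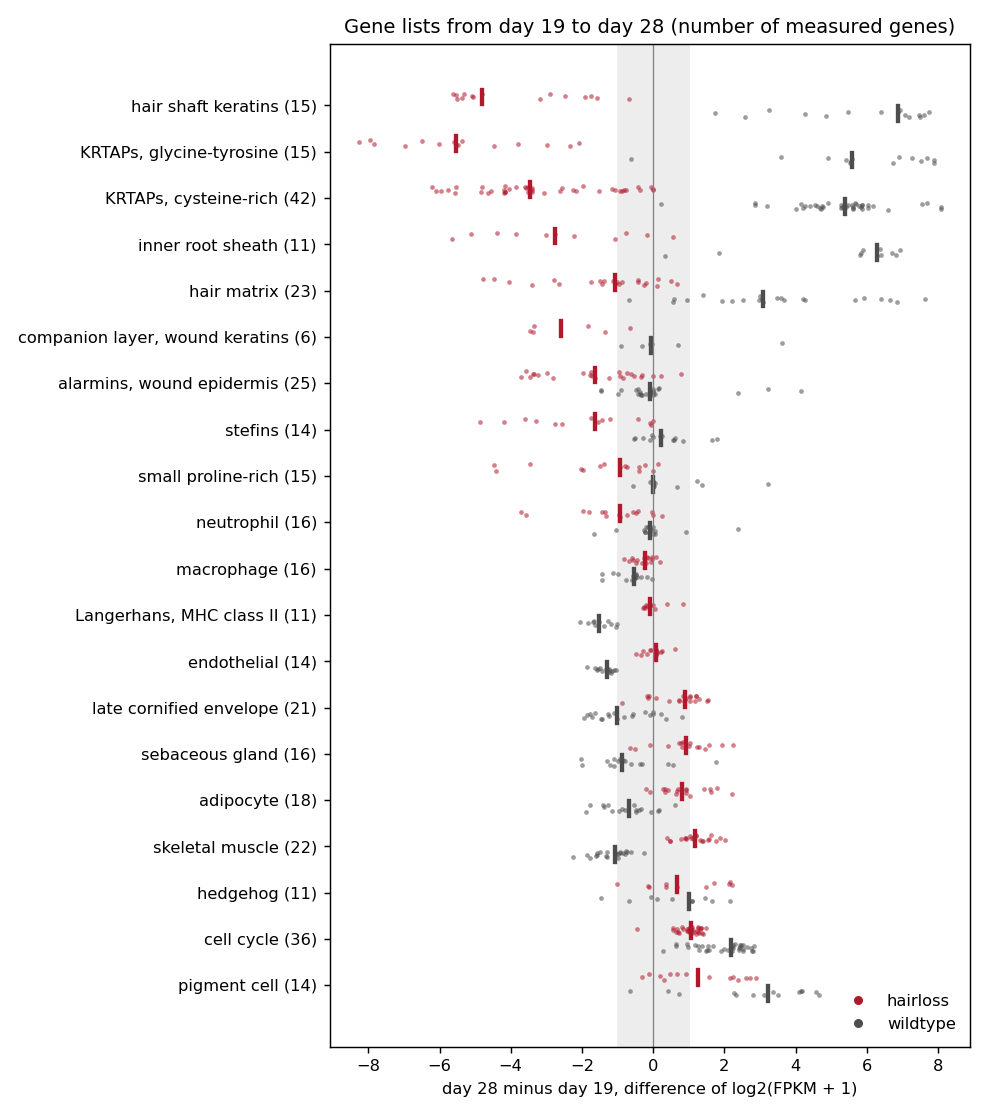
Difference of log2(FPKM + 1) between day 28 and day 19 for each measured gene (points) of 20 lists and the list median (bars), with hairloss above and wildtype below in each pair and the number of measured genes in brackets; the grey band is 2-fold. Shaft, sheath and matrix lists point in opposite directions in the 2 genotypes, as do late cornified envelope, sebaceous, adipocyte and muscle lists, while hedgehog, cell cycle and pigment lists point the same way.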

How the data were processed

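Total RNA from skin was sequenced in 8 libraries, with RNeasy columns for isolation and a TruSeq kit for the libraries, per the labels' protocols. The submitters' processing notes name cutadapt, Cuffdiff and mm10 with no version. An aligner, an annotation release, strandedness of the kit and any scaling between libraries are not stated there. The deposited files hold a single value for each Ensembl gene under a header that names no unit, read here as FPKM from the values and the naming of Cuffdiff. FPKM keeps no counts, so no count test was run. Gene type, coordinates and the symbols of 33387 genes came from GENCODE M21 on GRCm38, and 21795 symbols from the files. Depth was estimated from the value of 1 fragment in genes with a single transcript over 1000 bases.

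Values were compared as log2(FPKM + 1), with a pseudocount of 1, a minimum of 1 FPKM in either library and a size rule of 2-fold. There were 51 gene lists, described over every measured coding gene whatever its level, by counts and medians beside those of all genes compared. The members and lists were chosen with earlier results of these data known. Named genes were the 15 largest differences each way, per list up to 6 by difference and 4 by level, the 10 largest differences from the wildtype step each way, and shaft keratin, housekeeping and sex-linked genes. Predicted genes were not named, and exceptions are said in the text. A 0 was treated as a suspected failed estimate where a minority of the 8 libraries were at 0. Every library above 0 also had to hold at least 5 FPKM. The rule caught Ddx3y and Uty too, whose 0 at day 28 is given above as a marker of sex. Alternatives were pseudocounts of 0.1 and 5, other filters, 3 scalings and leaving out suspected failed zeros. Motifs were searched in RefSeq promoters on both strands. Python 3.11.15, numpy 2.4.6, pandas 2.3.3 and matplotlib 3.10.9 were used.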

Additional observations from a re-analysis of the deposited data

Results flagged for a closer look

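In 7 lists the median step from day 19 to day 28 reached 2-fold in both genotypes and had opposite signs in hairloss and wildtype skin. Other lists, such as the late cornified envelope, sebaceous and adipocyte genes, had medians of opposite sign that stayed under 2-fold in at least 1 genotype, and single genes of the 7 lists could go against the median. With 1 library at each age this difference was not tested. The values are medians over the genes of a list, of the hairloss step minus the wildtype step on the log2(FPKM + 1) scale. It was -11.68 for the hair shaft keratins, -11.68 for the glycine-tyrosine-rich KRTAPs, -8.81 for the cysteine-rich KRTAPs, -8.94 for the inner root sheath and -4.01 for the hair matrix, whose medians were negative in hairloss and positive in wildtype skin. It was 2.43 for skeletal muscle and 2.80 for the erythroid genes, whose medians were positive in hairloss and negative in wildtype skin. The erythroid list held 7 genes, 4 higher and 1 lower in hairloss skin.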

How the results depend on the processing

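No paired analysis was possible because each group holds 1 library, and for the same reason no library could be left out. In hairloss skin 709 genes were higher with a pseudocount of 0.1, and 167 were higher and 245 lower with a pseudocount of 5. Scaling by the sum of coding genes gave 503 higher and 487 lower in hairloss skin, where the main setting gave 429 and 535. In wildtype skin 600 were higher and 408 lower with a pseudocount of 5, and 1867 were lower after scaling by the sum of coding genes. With a pseudocount of 0.1 the list medians of the small proline-rich (-2.02) and neutrophil genes (-1.72) passed 2-fold. With a pseudocount of 5 those of the hair matrix (-0.75), pigment (0.44), cell division (0.77), alarmin (-0.73) and brown fat genes (0.39) no longer did, and brown fat (0.98) also missed it after median-of-ratios scaling. A minimum of 5 FPKM took the small proline-rich (-2.005, 8 genes), sebaceous (1.003, 15 genes), neutrophil (-1.97, 5 genes), immediate early (-1.05, 9 genes) and developmental muscle genes (1.78, 2 genes) past 2-fold. Leaving out suspected failed zeros did so for the small proline-rich genes (-1.15). The other 342 list medians under an alternative kept their direction and their side of 2-fold, and none of the 356 reversed. Of 2387 values of single genes under an alternative, 56 fell below 2-fold, 28 passed it and none reversed. At 30900000 to 42700000 fragments, levels near 0.1 FPKM rest on a few fragments.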

Other observations

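Among the genes named for their large differences were 3 of the cytochrome P450 family, given here as values of single genes. Cyp1a1, the enzyme induced through the aryl hydrocarbon receptor, had 308 FPKM at day 28, against 88.0 FPKM at day 19, in hairloss skin, and 4.05 FPKM at day 28, against 105 FPKM at day 19, in wildtype skin. Cyp2g1 had 4.20 FPKM at day 28, against 0.371 FPKM at day 19, in hairloss skin, and 0.491 FPKM at day 28, against 142 FPKM at day 19, in wildtype skin, the largest difference of steps above wildtype (8.504). Cyp2e1 had 16.1 FPKM at day 28, against 1.63 FPKM at day 19, in hairloss skin; in wildtype skin it had 3.25 and 11.1 FPKM at those ages. Skint5, of a family that shapes the T cells of the epidermis, had 8.86 FPKM at day 28, against 1.01 FPKM at day 19, in hairloss skin, and 13.3 FPKM at day 28, against 45.8 FPKM at day 19, in wildtype skin.

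The chemokine Ccl20, which attracts cells bearing Ccr6, was higher in hairloss skin, at 37.5 FPKM at day 28, against 8.57 FPKM at day 19, although 6 of 36 chemokine genes were lower and 3 higher. Mast cell genes stayed near their level in hairloss skin, with 0 of 13 higher and 1 lower, Cpa3 having 75.5 FPKM at day 28, against 56.7 FPKM at day 19. In wildtype skin 10 of 13 were lower, Cpa3 having 15.7 FPKM at day 28, against 91.2 FPKM at day 19. Ifi27l2a, an interferon-inducible gene, had 197 FPKM at day 28, against 28.7 FPKM at day 19, in hairloss skin, while 0 of 14 genes of the interferon list passed 2-fold, with a median of 0.08.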
